A study of Mus musculus with 8 samples.

Results

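Rab GTPases and SNARE proteins direct and carry out membrane traffic. The genes described here were the rows of the expression table whose symbol was Rab, Stx or Snap followed by a number, with at most 1 letter after it for Rab and Stx, or Vamp followed by 1 digit. They came to 86 of 55471 genes: 58 Rab GTPases, 15 syntaxins, 8 VAMP genes and 5 genes named Snap. They were measured in microglia, the resident macrophages of the brain, from hippocampi of C57/Bl6 mice at postnatal day 30. The cells were sorted as CD45lo/CD11B+/Ly-6C- from mice perfused with PBS, 4 hours after an injection of the cytokine interleukin-33 (IL-33; replicates 1 to 4) or of phosphate-buffered saline (PBS; replicates 5 to 8). Replicates 1 and 2 (IL-33) and 5 and 6 (PBS) were female, and replicates 3 and 4 (IL-33) and 7 and 8 (PBS) were male. The labels name no transgene or deletion and give neither the dose nor the site of injection. They do not say whether each library came from its own animal, so p-values measure the spread between these libraries, which may be partly technical.

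A Rab is a small GTPase that sits on the membrane of a particular compartment. Exchange factors (GEFs) load it with GTP, GTPase-activating proteins (GAPs) return it to the GDP form, GDI proteins carry it through the cytosol, and effectors such as tethers and motors bind its GTP form. Membranes then fuse when a VAMP on the vesicle zips with syntaxins and SNAP-25-type proteins on the target. In macrophages this machinery takes phagosomes to lysosomes and carries cytokines such as TNF from the Golgi through recycling endosomes to the cell surface.

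After IL-33, 2 of 70 tested members rose and 1 fell (4.29%, against 5.85% of all tested genes). Syntaxin 6 (Stx6), a syntaxin of the trans-Golgi network and endosomes, was 9.38-fold higher by the ratio of the group means. Rab20, a Rab of phagosomes and endosomes, was 8.11-fold higher. Rab27a, which docks secretory lysosomes, granules and exosome-carrying endosomes at the surface, was 66.1-fold lower by the same ratio. That ratio rests on few IL-33 reads, with values of 0.955 to 23.7 in the IL-33 libraries. With 1 library left out it ran from 50.9-fold to 144-fold lower, the latter without IL-33 replicate 3, the highest of the 4 IL-33 libraries. With any 1 PBS library left out, Rab27a no longer passed the test. The other 67 tested members did not pass the test, among them the most abundant one, Rab14.

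The promoters of Stx6, Rab20 and Rab27a are shown because these were the 3 members that passed the test. Each runs from 250 bases before to 50 bases after a RefSeq start site on GRCm38.p6, 5′ to 3′ on the gene's own strand, and capitals mark a CACGTG E-box, the letters read by TFEB, TFE3, MITF and MYC.
Stx6 promoter (chr1:155158453-155158752, plus strand): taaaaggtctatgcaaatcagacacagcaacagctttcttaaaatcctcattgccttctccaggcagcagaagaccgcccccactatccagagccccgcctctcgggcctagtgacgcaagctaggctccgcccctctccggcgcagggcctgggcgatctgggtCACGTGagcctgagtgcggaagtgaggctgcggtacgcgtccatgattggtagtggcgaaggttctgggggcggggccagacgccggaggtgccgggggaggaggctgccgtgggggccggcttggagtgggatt
Rab20 promoter (chr8:11478591-11478890, minus strand): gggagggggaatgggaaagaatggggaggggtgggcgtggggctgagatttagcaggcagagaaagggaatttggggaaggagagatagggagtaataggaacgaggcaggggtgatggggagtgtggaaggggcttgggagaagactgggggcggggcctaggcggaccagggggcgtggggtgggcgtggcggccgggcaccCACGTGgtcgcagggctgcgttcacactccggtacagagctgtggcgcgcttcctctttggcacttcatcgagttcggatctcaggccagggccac
Rab27a promoter at the upstream start (chr9:73044560-73044859, plus strand): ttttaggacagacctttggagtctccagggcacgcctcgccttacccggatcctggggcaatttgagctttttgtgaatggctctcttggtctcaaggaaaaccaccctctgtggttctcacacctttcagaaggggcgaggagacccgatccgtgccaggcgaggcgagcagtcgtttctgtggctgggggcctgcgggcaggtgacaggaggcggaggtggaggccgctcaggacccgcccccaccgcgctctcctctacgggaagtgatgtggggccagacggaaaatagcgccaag
Rab27a promoter at the downstream start (chr9:73063898-73064197, plus strand): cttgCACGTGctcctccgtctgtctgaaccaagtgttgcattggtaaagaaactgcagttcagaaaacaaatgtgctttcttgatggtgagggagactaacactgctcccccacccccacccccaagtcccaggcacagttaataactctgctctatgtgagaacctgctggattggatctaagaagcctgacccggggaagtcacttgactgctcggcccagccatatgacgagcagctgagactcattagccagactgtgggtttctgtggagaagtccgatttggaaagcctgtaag
Promoters were searched on both strands for CACGTG, for GGNNTTTCC, a part of NF-kB sites, and for TGANTCA, the AP-1 letters. CACGTG and TGANTCA read the same on both strands, and none of the 3 motifs contains another. The E-box began 85 bases before the Stx6 start, 46 bases before the Rab20 start and 246 bases before the downstream Rab27a start, and the upstream Rab27a promoter held none of the 3 motifs. Over all 32851 promoters of this length, 7.15% held CACGTG, 5.82% held GGNNTTTCC and 7.81% held TGANTCA. Over the 79 promoters of tested members the shares were 10.1%, 5.06% and 2.53%. A match describes the letters only, and RefSeq held a promoter for 71 of the 86 members.

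Libraries held 16.83 to 20.36 M reads after IL-33 and 19.18 to 21.48 M reads after PBS, read from the 3′ end of transcripts, so a value does not scale with gene length. Levels of different genes can be compared only roughly, because some genes share their 3′ end with another gene. How strand and multiple matches were treated is not given either. Values below are normalised counts, the authors' read counts divided by 1 factor per library, and 3 reads correspond to 2.20 to 3.12 on that scale. Genes with at least 10 reads numbered 10736, 10432, 8948 and 7958 after IL-33 (replicates 1 to 4) and 10950, 10311, 11902 and 10905 after PBS (replicates 5 to 8), so IL-33 replicates 3 and 4 had the fewest. All 13 microglial markers were present, with a summed level of 650186 to 934730 after IL-33 and 773057 to 1029350 after PBS. In limma 3 of the 13 were lower and in edgeR 1, the homeostatic receptor gene P2ry12 most, with means of 13030 ± 4520 after IL-33 and 71702 ± 19596 after PBS (SD, n = 4 each). Summed levels of neuronal markers were 1346 to 2594 after IL-33 and 642 to 1990 after PBS. Astrocyte markers summed to 5782 to 8932 after IL-33 and 3182 to 5589 after PBS, higher in every IL-33 library. Slc1a3 made up most of each astrocyte sum, so the sum mainly describes that gene. It had 4891 to 7926 after IL-33 and 2491 to 5079 after PBS, and its groups overlapped. Oligodendrocyte markers summed to 3439 to 5982 after IL-33 and 3283 to 4771 after PBS, and endothelial and pericyte markers to 228 to 636 after IL-33 and 394 to 947 after PBS. Monocyte markers summed to at most 314 after IL-33 and 266 after PBS and border macrophage markers to at most 617 after IL-33 and 364 after PBS, while 6 of 7 neutrophil markers had no read. T, B and NK cell markers summed to 1.69 to 643 after IL-33 and 0.732 to 1.69 after PBS, and 5 of 7 had no read. The 1 of them that was tested had a log2 fold change of 5.16 in limma. Of the 38 markers of other cell types tested, none was called by limma or edgeR, 4 had an unadjusted limma p under 0.05, and DESeq2 called 3. Of those 4, Slc1a3, Mbp and the tested T, B and NK cell gene were higher after IL-33 and Kdr was lower. The DESeq2 calls were all higher after IL-33: Gfap (DESeq2 adjusted p = 0.0204), Mbp (0.0374) and the same T, B and NK cell gene. Among the most abundant genes of the lists, Meg3, Camk2a, Slc1a3, Slc1a2, Mbp, Pecam1, Kdr, F13a1, Ccr2, Mrc1 and Pf4 had limma adjusted p of 0.167 (Mbp, higher in every IL-33 library) to 0.956 (Slc1a2).

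Of the 86 members, 10 had no read in any library, among them Rab38, Rab9b, Rab40b, Rab25, Rab17, Rab3b, Rab27b, Rab44 and Rab26. A count of 0 allows up to 2.20 to 3.12 per library, for counting error only. A further 6 had reads but a mean under 10 over the 8 libraries (Rab19, Rab39b, Rab30, Vamp9, Rab3d and Rab37), and the other 70 were tested. Each was compared with limma on log2(value + 1), two-sided, with a fit over all 13877 genes of mean 10 or more and Benjamini-Hochberg adjustment over all of them. A gene was called at an adjusted p under 0.05. A log2 fold change below is the difference in mean log2(value + 1), IL-33 minus PBS. The added 1 shrinks it where both groups are low, while 1 or 2 libraries near 0 can make it larger in size than the fold of the group means. Rab5a, with 1 such IL-33 library, had −2.32, against −0.66 in edgeR on the recovered reads. Vamp5, with 2, had −4.47, against −2.57. For 4 of the 70 tested members, none of them called, edgeR gave the opposite sign: Snap47 (−1.25 in limma, 0.96 in edgeR), Stx18, Vamp7 (−2.18 and 0.29) and Rab4b.

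Calls numbered 3 of 70 members, or 4.29%, against 5.85% of all tested genes. In each direction 2 members were higher, against 3.06% of all genes, and 1 was lower, against 2.80%. A share of this size is near the background, so the calls describe single genes and not the set. An unadjusted limma p under 0.05 was found for 14 of the 70 members, against 2698 of all 13877 tested genes. edgeR on the recovered whole reads called the same 3 members, against 5.46% of all genes. DESeq2 called these 3 and also Rab43 and Stx11 (higher) and Stx7 (lower), against 11.9% of all genes. For 11 members all 4 IL-33 libraries lay on the same side of all 4 PBS libraries (15.7%; 5 above and 6 below), against 13.7% of all genes. Of the 24 members with a mean of at least 1000, where the spread was smaller, 2 were called (8.33%), against 19.3% of the 3116 genes at that level.

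**Figure D1:**
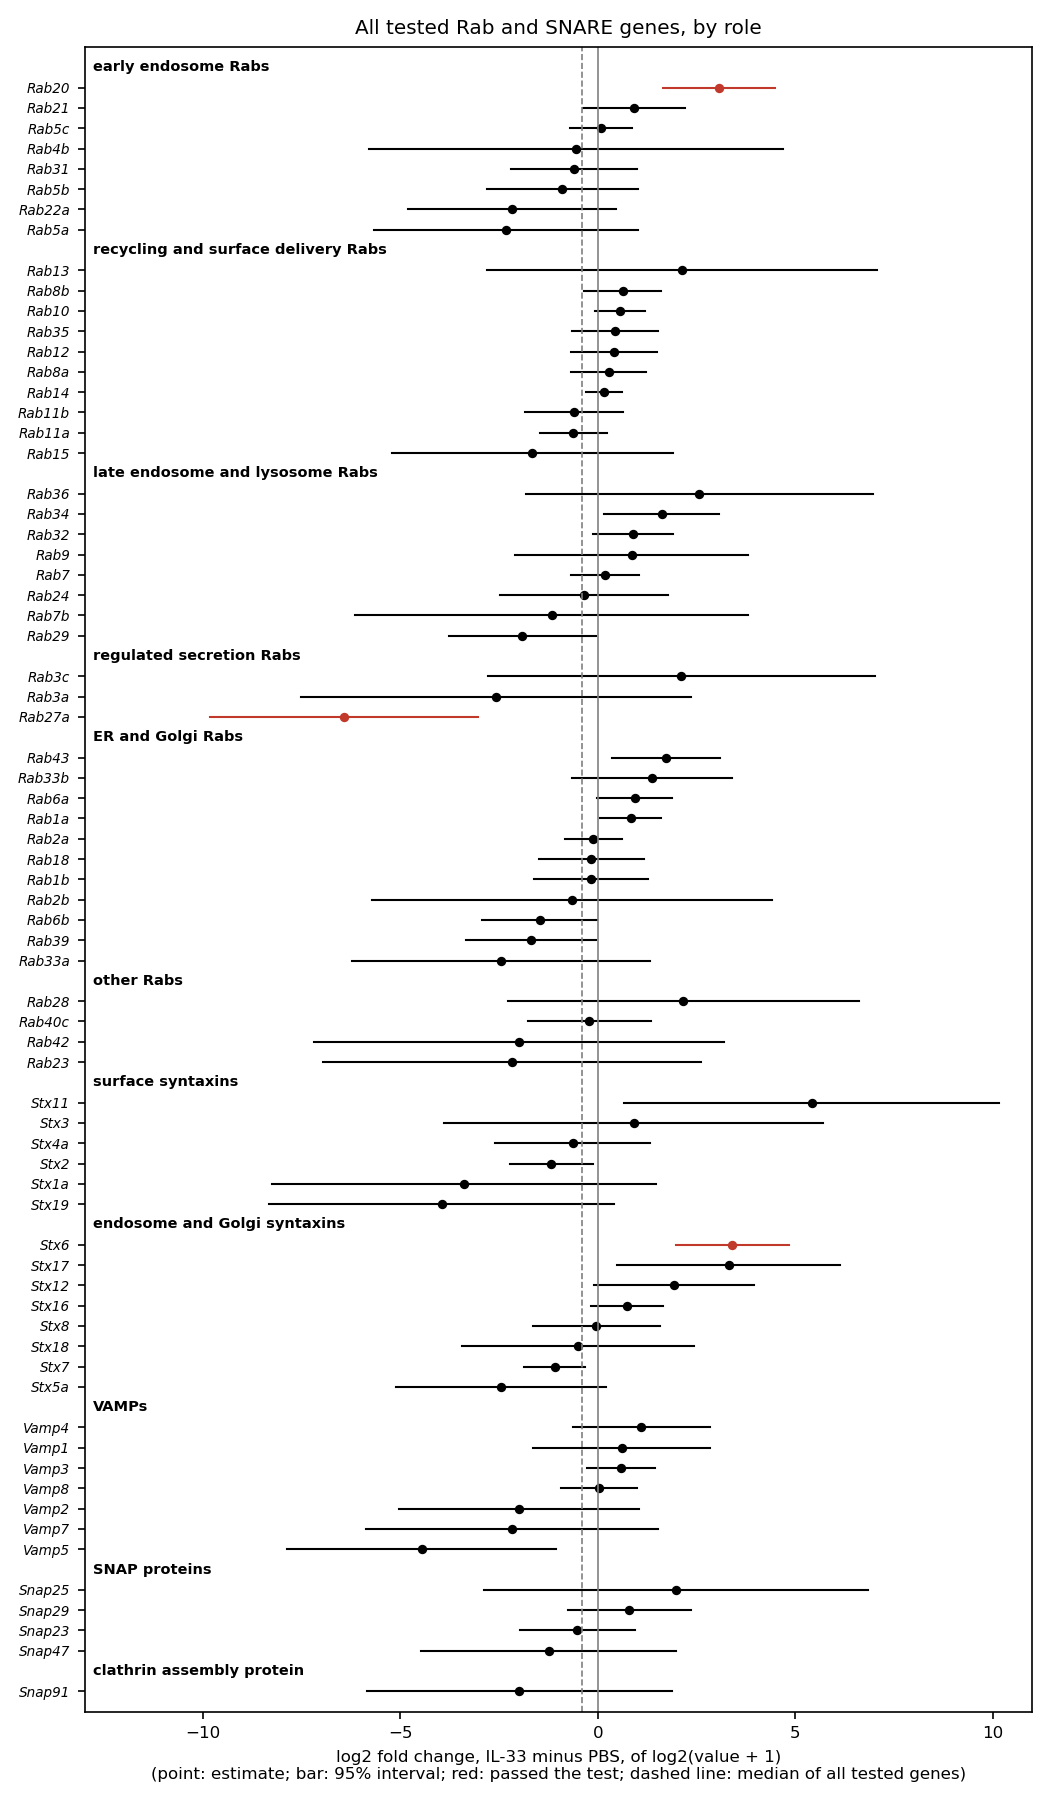
Log2 fold change (IL-33 minus PBS) of each of the 70 tested members, grouped by role, with its 95% interval; red marks the members called by limma and the dashed line the median of all tested genes. Stx6 at 3.41, Rab20 at 3.08 and Rab27a at −6.43 are the called members, and most other intervals cross 0.

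The median log2 fold change was −0.14 over the 70 members and −0.40 over all tested genes, with 33 members above 0 and 37 below. Both medians moved up in edgeR, to 0.10 for members and −0.08 for all genes. The 95% interval lay inside a change of 1 on the log2 scale either way for 4 members (5.71%), against 2.46% of all genes. It spanned more than 4 log2 units for 33 members (47.1%), against 64.6% of all genes, so for many members a large change could not have been told from none. Reads of all members together made up 0.461 ± 0.0649% of each IL-33 library and 0.430 ± 0.0382% of each PBS library (SD, n = 4 each). In a bulk sample, fewer cells of a type and less RNA per cell cannot be told apart.

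Stx6 takes part with Stx7 and Vti1b in fusion between Golgi-derived and endosomal membranes. Its values were 1230.2, 1909, 2069 and 2358 in the IL-33 libraries, against 265, 151, 67.4 and 324 in the PBS libraries. Every IL-33 library was above every PBS library, with means of 1892 ± 479 after IL-33 and 202 ± 115 after PBS (SD, n = 4 each). The log2 fold change was 3.41 ± 0.69 (SE; 95% interval 1.97 to 4.85; limma adjusted p = 0.00417), and 3.23 in edgeR (adjusted p = 0.00166). It was 2.93 in females and 3.89 in males. The call held in 19 of 19 alternative analyses. The gene lies at chr1:155158715-155208256 on the plus strand.

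Rab20 takes part in the maturation of phagosomes in macrophages. Its values were 824, 2117, 2103 and 2880 in the IL-33 libraries, against 146, 415, 111 and 305 in the PBS libraries. The groups did not overlap, and the lowest IL-33 library, replicate 1, was still above the highest PBS library. The means were 1981 ± 852 after IL-33 and 244 ± 142 after PBS (SD, n = 4 each), and the log2 fold change was 3.08 ± 0.68 (SE; 95% interval 1.65 to 4.50; limma adjusted p = 0.00863), with 3.03 in edgeR (adjusted p = 0.0027). It was 2.42 in females and 3.73 in males. The call held in 17 of 19 alternative analyses. Leaving out IL-33 replicates 3 and 4, the libraries with the fewest genes, gave 2.63 and an adjusted p of 0.0814 with limma. A limma fit without a variance trend also ended the call. Rab20 lies at chr8:11453518-11478710 on the minus strand.

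Rab27a works through the Slp, melanophilin and Munc13-4 effectors. Its values were 7.27, 4.23, 23.7 and 0.955 in the IL-33 libraries, against 693, 752, 501 and 443 in the PBS libraries. All 4 IL-33 libraries were far below all 4 PBS libraries, and IL-33 replicate 4 held a single read, with means of 9.04 ± 10.1 after IL-33 and 597 ± 148 after PBS (SD, n = 4 each). Rab27a fell by 6.43 ± 1.62 on the log2 scale (SE; 95% interval −9.83 to −3.03; limma adjusted p = 0.0218), and edgeR gave −6.02 (adjusted p = 0.0121). The change was −6.78 in females and −6.09 in males. In 15 of 19 alternative analyses the call held. Leaving out any 1 of the PBS libraries kept the change between −6.57 and −6.31 but ended the call, with adjusted p of 0.0961 to 0.102 for replicates 5, 6 and 7 and 0.082 for replicate 8, in limma. Rab27a lies at chr9:73044854-73097629 on the plus strand. No annotated gene overlapped the last 1000 bases of Stx6, Rab20 or Rab27a.

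**Figure D2:**
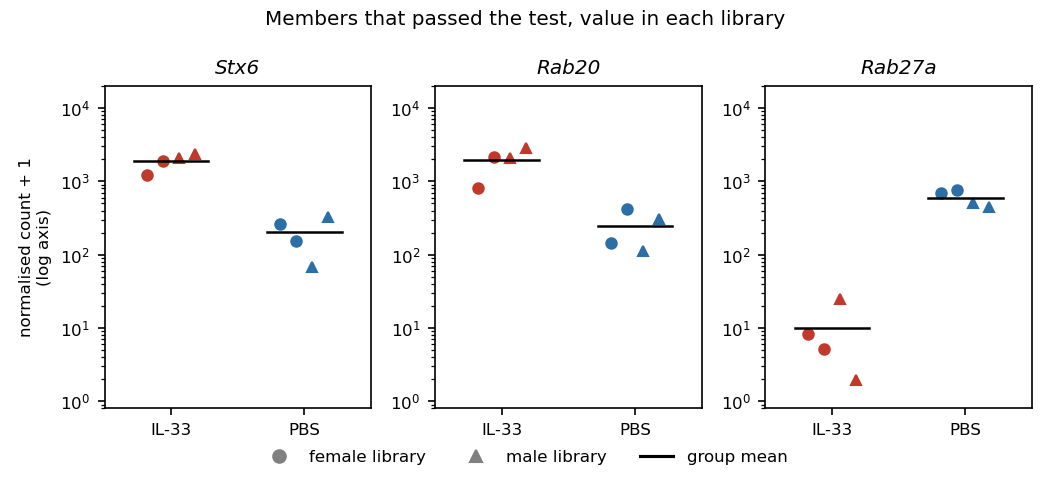
Normalised count + 1 (log axis) of Stx6, Rab20 and Rab27a in each library, IL-33 left of PBS; circles are female and triangles male libraries, and bars are group means. In each panel the 4 IL-33 libraries lie apart from the 4 PBS libraries, above them for Stx6 (1230.2 to 2358 against 67.4 to 324) and Rab20, and below them for Rab27a.

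Early endosome Rabs take new endocytic vesicles into sorting endosomes, and all 8 were tested: Rab20 rose and the other 7 were not called. Rab5c, an isoform of the Rab5 master regulator, was the most abundant of them at 3688, 2580, 2152 and 4975 after IL-33, against 2062, 2600, 4773 and 3207 after PBS. The groups overlapped and the log2 fold change was 0.08 (95% interval −0.71 to 0.87). Rab5a and Rab5b, the other Rab5 isoforms, had estimates of −2.32 and −0.90 with intervals that include 0, and Rab5a had no read in IL-33 replicate 3 but 186 to 435 in the other IL-33 libraries and 223 to 505 in the PBS libraries. Rab21, Rab22a, Rab31 and Rab4b had estimates of 0.93, −2.18, −0.61 and −0.56. In edgeR Rab22a had −0.87, and Rab4b turned to 0.66, with means of 92.6 after IL-33 and 57.5 after PBS. The median over the 8 genes was −0.58 in limma and −0.079 in edgeR.

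Recycling and surface delivery Rabs return receptors and carry new cargo to the plasma membrane. Of 12, 10 were tested and none was called by limma, edgeR or DESeq2, with no unadjusted p under 0.05. Rab14, which runs between the Golgi, endosomes and phagosomes, had the highest level of all members: 8463, 10705, 12141 and 13139 after IL-33, against 9233, 10135, 9179 and 10921 after PBS. The groups overlapped, with means of 11112 ± 2029 after IL-33 and 9867 ± 828 after PBS (SD, n = 4 each). Its log2 fold change was 0.16 ± 0.22 (SE), and the 95% interval of −0.31 to 0.62 was the narrowest of the members. Rab14 alone made up 11.7 to 15.1% of member reads after IL-33 and 12.8 to 16.3% after PBS.

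Rab10, a Rab of exocytic and recycling vesicles, had 5578, 5375, 6001 and 6442 after IL-33, against 3669, 6202, 3609 and 2944 after PBS. Only PBS replicate 6 reached into the IL-33 range, and the log2 fold change was 0.57 (95% interval −0.06 to 1.19; limma adjusted p = 0.315). An antisense gene, Rab10os, covers part of the last 1000 bases of Rab10, and whether the counting used the strand is not given in the sources used here. Rab8a and Rab8b, which deliver vesicles to the surface, had 0.27 and 0.63. Rab11a and Rab11b, the Rabs of recycling endosomes, had −0.62 and −0.61, and Rab35 and Rab12 had 0.43 and 0.41. The class ran from −1.66 (Rab15, read in PBS replicate 5 alone) to 2.14 (Rab13), with a median of 0.34.

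Late endosome and lysosome Rabs numbered 10, of which 8 were tested and none was called by limma, edgeR or DESeq2, though 2 had an unadjusted p under 0.05. Rab32, a Rab of lysosome-related organelles and mitochondria, had the highest mean of them, at 1363, 3068, 2497 and 4593 after IL-33, against 1455, 2910.5, 741 and 1277 after PBS. Those groups overlapped, with a log2 fold change of 0.89 (95% interval −0.12 to 1.91). Rab7, the main Rab of late endosomes and lysosomes, had 2224, 1542, 2414 and 2337 after IL-33, against 1235, 2967, 2247 and 1426 after PBS. Its estimate was 0.18 (95% interval −0.69 to 1.05), and the antisense gene Gm5577 lies over its 3′ end.

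Rab34, a Rab that positions lysosomes, and Rab29, the Rab that binds the kinase LRRK2, were the late endosomal members whose groups did not overlap. Rab34 had 601, 1008, 1075 and 1179 after IL-33, against 158, 584, 192 and 474 after PBS. Every IL-33 library was higher, by little for replicate 1, and the log2 fold change was 1.62 (95% interval 0.17 to 3.08; limma adjusted p = 0.201). Rab29 had 213, 72.8, 171 and 193 after IL-33, against 227, 1088, 692 and 609 after PBS. Every IL-33 library was lower, PBS replicate 5 lay close to them, and the log2 fold change was −1.91 (95% interval −3.77 to −0.05; limma adjusted p = 0.242). Neither passed the test. Lrrk2 itself had no read in any library.

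Most Rabs of regulated secretion had few reads or none. Of 9 only Rab27a, Rab3a and Rab3c were tested, 4 had no read, and Rab37 had 2 reads in all. Rab3d had 44.9 in PBS replicate 5 and 34.4 in PBS replicate 8 and no read in the other 6 libraries. Rab3a, a synaptic vesicle Rab, had 188, 61.8, 1.97 and 0 after IL-33, against 146, 567, 0.822 and 299.6 after PBS. Values in both groups ran down to a single read or none, and the log2 fold change of −2.58 had a 95% interval of −7.52 to 2.35. Rab3a shares its 3′ end with Mpv17l2 on the opposite strand.

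ER and Golgi Rabs move cargo out of the endoplasmic reticulum and through the Golgi. Of 14, 11 were tested, limma and edgeR called none, DESeq2 called Rab43, and 4 had an unadjusted limma p under 0.05. Rab1a, which drives traffic between the ER and the Golgi, had 3155, 6219, 8924 and 8350 after IL-33, against 4794, 2737, 2305 and 4815 after PBS. IL-33 replicates 2, 3 and 4 were above all PBS libraries and replicate 1 was not, with a log2 fold change of 0.83 (95% interval 0.07 to 1.60; limma adjusted p = 0.213). Rab2a, of the same route, had 3202 ± 862 after IL-33 and 3469 ± 1026 after PBS (SD, n = 4 each), with −0.12 on the log2 scale (95% interval −0.84 to 0.61). Rab6a, which works at the trans-Golgi, had 0.93 (95% interval −0.01 to 1.88), and 1 library, IL-33 replicate 4 at 6129, stood above the other 7 at 1037 to 2607.

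Rab43 and Rab6b were the Golgi members without overlap. Rab43 had 763, 955, 1314 and 2631 after IL-33, against 749, 419, 174 and 377 after PBS. The gap between IL-33 replicate 1 and PBS replicate 5 was small, and the log2 fold change was 1.73 (95% interval 0.36 to 3.10; adjusted p = 0.141 in limma, 0.147 in edgeR and 0.0437 in DESeq2). Gm45140 lies on the same strand over the 3′ end of Rab43, so reads could be split between them. Rab6b, the Rab6 isoform best known from neurons, had 809, 99, 793 and 433 after IL-33, against 1035, 987, 1346 and 1212 after PBS. It was lower in every IL-33 library, with a log2 fold change of −1.48 (95% interval −2.94 to −0.02; limma adjusted p = 0.251). Among Rabs of no single class, Rab40c had 650.4 ± 297 after IL-33 and 855 ± 557 after PBS, and Rab28 had 188 ± 267 after IL-33 and 67.4 ± 74.5 after PBS (SD, n = 4 each), with no call among the 4 tested in limma, edgeR or DESeq2 and no unadjusted p under 0.05.

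**Figure D3:**
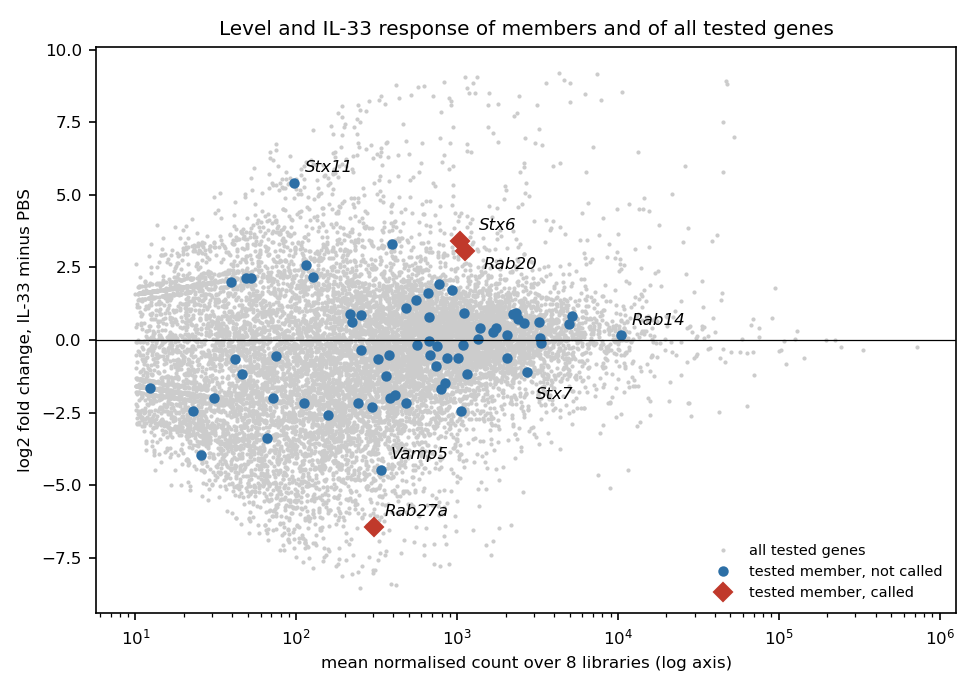
Log2 fold change (IL-33 minus PBS) against the mean normalised count over 8 libraries (log axis) for all 13877 tested genes in grey and the 70 tested members in colour. Rab14, the most abundant member, lies close to 0 at 0.16, and Stx7, also abundant, lies at −1.09. Stx6 and Rab20 stand well above members of like level.

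Syntaxins of endosomes and the Golgi were all tested (8 genes): Stx6 rose and 7 were not called by limma or edgeR. Stx7, the late endosomal partner of Stx6, was the most abundant, at 1922, 1965, 1286 and 1656 after IL-33, against 3189, 5519, 3668 and 2594 after PBS. All 4 IL-33 libraries were below all 4 PBS libraries. The log2 fold change was −1.09 ± 0.37 (SE; 95% interval −1.88 to −0.31), with an adjusted p of 0.0977 in limma, 0.0866 in edgeR and 0.0236 in DESeq2. The estimates for Stx6 and Stx7 thus had opposite signs, and only that of Stx6 passed the limma test. The third partner, Vti1b, was looked up for this partnership after its values were known. Vti1b had 1224, 1180.4, 1901 and 1254 after IL-33, against 444, 888, 544 and 376 after PBS, all IL-33 libraries higher, with a log2 fold change of 1.35 (limma adjusted p = 0.173).

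Stx16, a trans-Golgi syntaxin that pairs with Stx6, had 2732, 2223, 1975 and 4923 after IL-33, against 1476, 2902, 1797 and 995 after PBS, with overlap and a log2 fold change of 0.74 (95% interval −0.17 to 1.64). Stx17, the syntaxin of autophagosomes, had 456, 234, 886 and 1082 after IL-33, against 189.7, 1.7, 135 and 148 after PBS. The groups did not overlap, PBS replicate 6 was far below the other PBS libraries, and the log2 fold change was 3.32 (95% interval 0.50 to 6.14; limma adjusted p = 0.175). Stx12 had 1.93, Stx8 −0.04, Stx18 −0.50 and Stx5a −2.46 on the log2 scale, each with an interval that includes 0. In edgeR Stx5a had −0.62, and Stx18 turned to 0.88 (0.87 in DESeq2), with means of 487 ± 423 after IL-33 and 267 ± 107 after PBS (SD, n = 4 each).

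Surface syntaxins receive vesicles at the plasma membrane. Of 7, 6 were tested, limma and edgeR called none, DESeq2 called Stx11, and 2 had an unadjusted limma p under 0.05. Stx2 had 881, 406, 768 and 841 after IL-33, against 1547, 1919, 1360.4 and 1524 after PBS. The groups did not overlap, with a log2 fold change of −1.18 (95% interval −2.23 to −0.13; limma adjusted p = 0.196). Stx4a, the surface syntaxin used in macrophage TNF release, had 490.4, 503, 113 and 83.1 after IL-33, against 371, 380, 281 and 351 after PBS. The female IL-33 libraries were above and the male ones below all PBS libraries, the log2 fold change was −0.64 (95% interval −2.59 to 1.31), and the difference between the sexes had an adjusted p of 0.783 in limma.

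Stx11 is a syntaxin of immune cells, needed in cytotoxic lymphocytes for granule release. It had 169, 142, 465 and 0 after IL-33, against 0.847, 0.852, 0 and 0 after PBS. Reads were thus found in 3 of 4 IL-33 libraries, while PBS replicates 5 and 6 had a single read each. The estimate was 5.42 in limma (adjusted p = 0.188), 8.54 in edgeR (adjusted p = 0.112) and 8.87 in DESeq2 (adjusted p = 0.000542). Its size depends on the value added to 0, so it bounds nothing, and no ratio is given. T, B and NK cell markers summed to 1.69 to 643 after IL-33 and 0.732 to 1.69 after PBS. The part of lymphocyte RNA in Stx11 was not tested.

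VAMPs sit on the vesicle side, and all 7 apart from Vamp9 (1 read in all) were tested. None was called by limma, edgeR or DESeq2, and Vamp5 alone had an unadjusted limma p under 0.05. Vamp3, the VAMP of recycling endosomes that carries TNF in macrophages, had 3300, 3699.5, 1320 and 4629 after IL-33, against 1804, 1997, 1847 and 2200 after PBS. IL-33 replicate 3 was the lowest library and the other 3 IL-33 libraries the highest, with a log2 fold change of 0.59 (95% interval −0.28 to 1.45; limma adjusted p = 0.456). Its 3′ end is shared with Camta1 on the same strand. Vamp8, of late endosomes and regulated exocytosis, had 1389 ± 440 after IL-33 and 1321 ± 217 after PBS (SD, n = 4 each), with 0.03 on the log2 scale (95% interval −0.94 to 0.99). Vamp2, the VAMP of synaptic vesicles, had 515, 357, 349 and 0.955 after IL-33, against 329, 350.2, 357 and 785 after PBS. Only IL-33 replicate 4 was near 0, and the log2 fold change was −2.00 (95% interval −5.04 to 1.04) in limma and −0.56 in edgeR. Vamp1, a close relative of Vamp2, had 304, 146, 301 and 222 after IL-33, against 59.3, 178, 111 and 460 after PBS, with 0.61 on the log2 scale.

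Vamp5 had 190.1, 1.69, 188 and 1.91 after IL-33, against 340.4, 1022, 311 and 619 after PBS. All IL-33 libraries were lower, 2 of them at 2 reads, and the log2 fold change was −4.47 (95% interval −7.88 to −1.06; limma adjusted p = 0.126). The 4 SNAP-25-type proteins were tested and none was called by limma, edgeR or DESeq2, with no unadjusted p under 0.05. Snap23, the form used at the macrophage surface, had 499.8, 793, 677 and 226 after IL-33, against 1215, 279, 1009.6 and 757 after PBS. The groups overlapped, with a log2 fold change of −0.52 (95% interval −1.98 to 0.93). Snap29, which pairs with Stx17 on autophagosomes, had 854, 582, 1309 and 402 after IL-33, against 1259, 147, 402 and 379 after PBS, with overlap and 0.80 (95% interval −0.77 to 2.37).

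**Figure D4:**
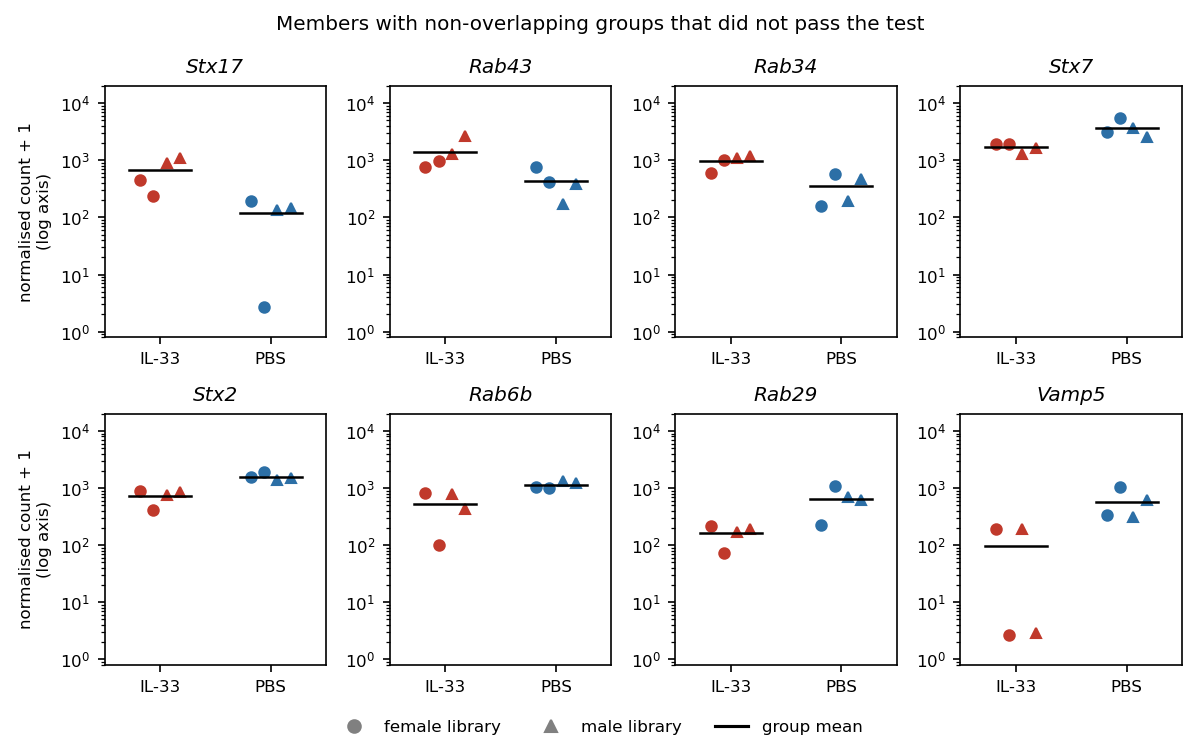
Normalised count + 1 (log axis) in each library for the 8 members whose IL-33 and PBS libraries did not overlap but which limma did not call; symbols as in the plot of the called members. Stx17, Rab43 and Rab34 were higher in every IL-33 library, and Stx7, Stx2, Rab6b, Rab29 and Vamp5 were lower.

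Snap25 and Stx1a had few reads, spread unevenly over the libraries. Snap25, the neuronal target SNARE, had 7.27, 135, 46.4 and 0 after IL-33, against 125, 0, 0 and 0.732 after PBS, and Stx1a, its partner, had 18.7, 16.9, 0 and 0 after IL-33, against 0.847, 306, 127 and 57.9 after PBS. Neither was called. Snap91 encodes AP180, a clathrin assembly protein that the name rule takes in but which is no SNARE. Its reads were all in PBS replicate 6, at 247, and no fold is given. The summed neuronal markers were 1346 to 2594 after IL-33 and 642 to 1990 after PBS, the synaptic vesicle gene Syp had no read in any library, and the part of neuronal RNA in these members was not tested.

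Several members had reads in some libraries of a group and almost none in others. Of the 70 tested members, 5, 11, 14 and 16 had 3 reads or fewer in IL-33 replicates 1 to 4, against 8, 15, 8 and 9 in PBS replicates 5 to 8. For all tested genes the shares were 22.8, 25.2, 34.2 and 40.7% after IL-33 and 21.4, 25.4, 17.2 and 22.0% after PBS. The members followed the same order as all genes in the IL-33 libraries. Rab15, Rab33a, Rab36 and Snap91 each passed the filter on low values through 1 library.

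The regulators of Rabs and SNAREs were followed in 6 lists chosen with earlier results of these data known, with 163 genes tested. limma called 12 of them (4 higher and 8 lower, 7.36%, against 5.85% of all genes). edgeR called 8 of the 163, against 5.46% of all genes, and DESeq2 18, against 11.9%. With a share near the background, the counts by list describe single genes and not a list. Among the GEFs and Rab carriers 0 of 35 were higher and 4 were lower, against 3.06% and 2.80% of all genes. Rin2, a Rab5 GEF, fell by 2.22 on the log2 scale, with 1189.7, 710, 1036 and 2009.6 after IL-33, against 5314, 6035, 4736 and 5509 after PBS (limma adjusted p = 0.00105). All IL-33 libraries were far below the PBS libraries. Gdi2, the GDI that recycles Rabs through the cytosol, fell by 1.39, with 3212, 1322, 3971 and 6285 after IL-33, against 7909.6, 9673, 8540.4 and 7744 after PBS (limma adjusted p = 0.0316, edgeR 0.0572).

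Hps4, a subunit of the exchange factor for Rab32 and Rab38, had 467, 1646, 106 and 5.73 after IL-33, against 4558, 2794, 3745 and 2205 after PBS (log2 fold change −4.39; adjusted p = 0.0229 in limma and 0.0873 in edgeR). Rab3ip, a Rab8 GEF, had 55.1, 232, 1.97 and 0.955 after IL-33, against 1477, 701, 682 and 859.9 after PBS (log2 fold change −5.73; adjusted p = 0.0325 in limma and 0.0999 in edgeR). Both were lowest in IL-33 replicates 3 and 4, the libraries with the fewest genes. Without that pair limma still called both, at −1.87 for Hps4 (adjusted p = 0.0397) and −2.95 for Rab3ip (adjusted p = 0.0367). Their Rabs, Rab32 and Rab8a or Rab8b, were not called.

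Rab GAPs had 2 higher and 2 lower of 33. Tbc1d1, a GAP known from insulin-regulated traffic, had 4669, 1590, 5509 and 6828 after IL-33, against 580, 618, 319.6 and 631 after PBS (log2 fold change 2.98; limma adjusted p = 0.000968). Tbc1d8, another TBC-domain protein, had 380.3, 1846, 1287 and 2544 after IL-33, against 33.9, 30.7, 78 and 69.6 after PBS (log2 fold change 4.63; limma adjusted p = 0.00569). The groups stood well apart for both. Tbc1d22a and Tbc1d16, the GAP for Rab4a, had log2 fold changes of −5.61 and −3.55 (limma adjusted p = 0.0108 and 0.036). Tbc1d16 had 153, 1139, 13.8 and 226 after IL-33, against 1389.5, 2749, 2402 and 1224 after PBS, and edgeR did not call it (adjusted p = 0.11).

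Effectors had 1 higher and 1 lower of 32. Rabep2, a rabaptin that binds Rab5 on early endosomes, had 584, 1296, 1455 and 2338 after IL-33, against 172, 50.3, 235 and 442 after PBS (log2 fold change 2.86; limma adjusted p = 0.0386). Rilpl1, which binds Rabs phosphorylated by LRRK2, had 429, 410.4, 158 and 535 after IL-33, against 1353, 1418, 2817 and 1699 after PBS (log2 fold change −2.31; limma adjusted p = 0.0247). Neither pair of groups overlapped. Of the Rab27a partners, named here for that link after their values were seen, melanophilin (Mlph) had 473, 873, 5.92 and 0 after IL-33, against 869.6, 869, 1507 and 745 after PBS (limma adjusted p = 0.126). Unc13d (Munc13-4), Madd, the Rab27a GEF, and Tbc1d10a, a Rab27a GAP, had adjusted p of 0.619, 0.84 and 0.975 in limma, and Sytl2, Sytl3 and Sytl4 had no read. Sytl1, which encodes another Slp, had 42.6, 72.8, 0 and 0 after IL-33, against no read in the 4 PBS libraries (limma adjusted p = 0.407).

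Tethers, retromer and exocyst genes had 1 higher and 1 lower of 27. Exoc1, an exocyst subunit that tethers vesicles to the plasma membrane, had 716, 337, 1837 and 1924 after IL-33, against 164, 129, 113 and 28.6 after PBS (log2 fold change 3.38; limma adjusted p = 0.0381). Vps41, the HOPS subunit that brings vesicles to lysosomes through Rab7, had 365, 473, 74 and 489 after IL-33, against 1644, 1815, 1786 and 1322 after PBS (log2 fold change −2.53; limma adjusted p = 0.032). Of 12 SNAREs with other names, limma and edgeR called none, DESeq2 called 1 and 3 had an unadjusted limma p under 0.05. The 2 most abundant, Ykt6 and Use1, had log2 fold changes of −0.51 (95% interval −1.26 to 0.24) and −0.29 (−1.25 to 0.67). Of 24 SM proteins, NSF and SNARE regulators, none was called by limma, edgeR or DESeq2 and 2 had an unadjusted limma p under 0.05. Vapa and Scfd1 there had 0.20 and 0.51.

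Leaving out 1 library at a time kept the limma calls of Tbc1d1, Tbc1d8 and Rin2 in 8 of 8 fits. Each of these was called in 18 of 19 alternative analyses and missed in 1 other limma fit. The adjusted p there was 0.0518 for Tbc1d1, 0.0984 for Tbc1d8 and 0.0714 for Rin2. Leaving out any 1 PBS library ended the calls of Rab3ip, Hps4, Gdi2, Tbc1d16, Rilpl1, Vps41 and Exoc1, with adjusted p of 0.0545 (Exoc1) to 0.147 (Tbc1d16). Leaving out PBS replicate 6, 7 or 8 ended that of Tbc1d22a (adjusted p up to 0.0786), and PBS replicate 5, 6 or 7 that of Rabep2 (up to 0.103). Of the IL-33 libraries, replicate 3 ended the calls of Rab3ip and Hps4 (adjusted p = 0.051 and 0.0575), replicate 1 or 2 that of Gdi2 (up to 0.0817), replicate 1 or 3 that of Tbc1d16 (up to 0.0661), replicate 2, 3 or 4 that of Rabep2 (up to 0.0928) and replicate 1, 3 or 4 that of Exoc1 (up to 0.12).

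**Figure D5:**
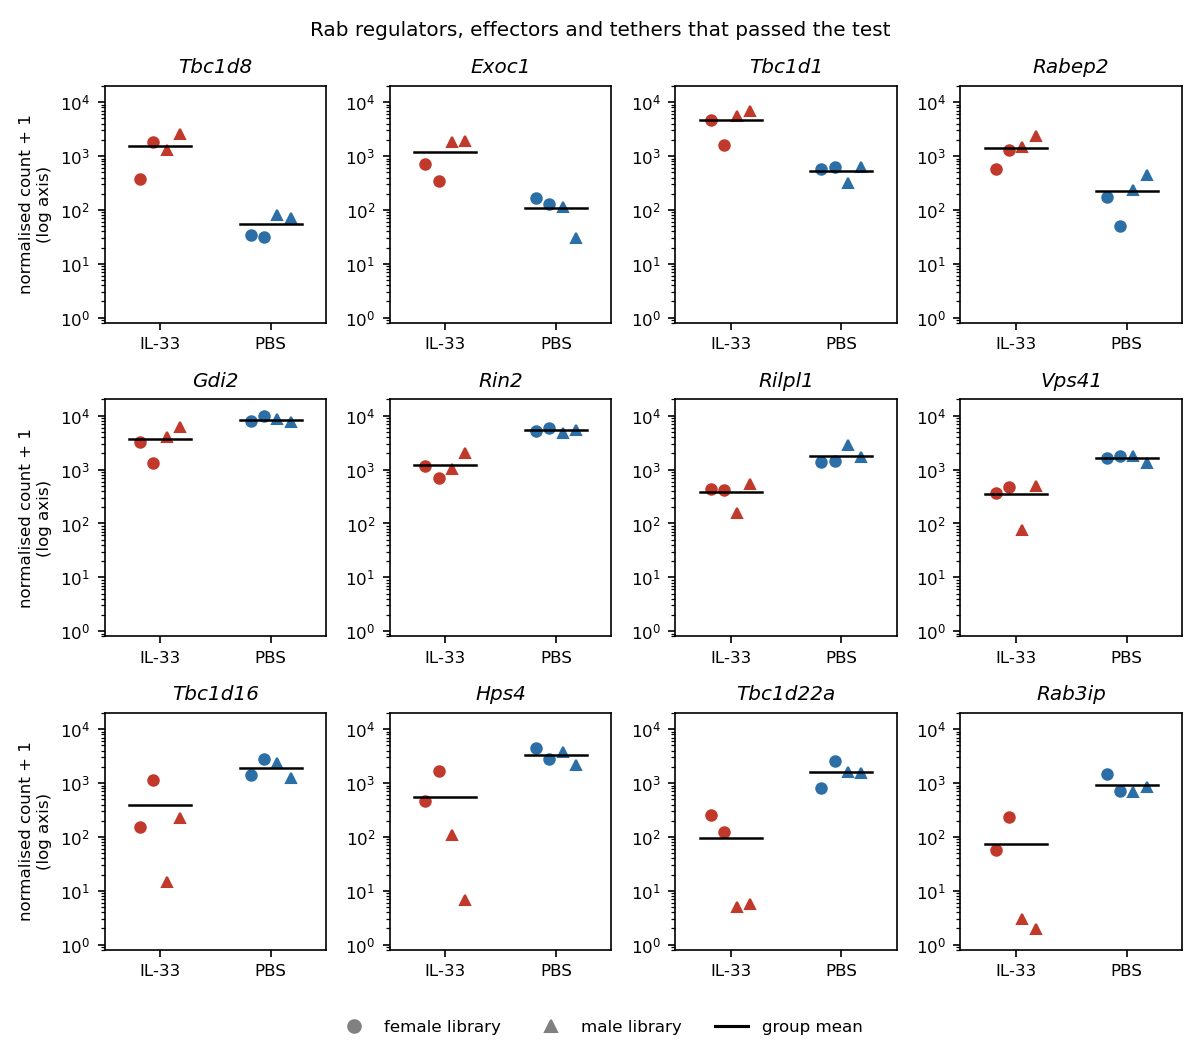
Normalised count + 1 (log axis) in each library for the 12 regulators, effectors and tethers called by limma; symbols as in the plot of the called members. The 4 genes of the top row were higher in every IL-33 library and the other 8 lower, with IL-33 replicates 3 and 4 lowest for Hps4, Tbc1d22a and Rab3ip.

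No member and no other gene passed the limma test of an interaction between sex and treatment (0 of 13877, 0% of all genes). An unadjusted p under 0.05 was found for 2 members, Rab8b and Rab3c, and for 809 genes. edgeR called no member, and DESeq2 called Rab3c and Stx11 (adjusted p = 0.0445 and 0.00748). Both have libraries at 0 or 1 read in each sex: Rab3c had 57.1 and 212 in the female IL-33 libraries, against 0 in both female PBS libraries, and 0.987 and 1.91 in the male IL-33 libraries, against 115 and 0.732 in the male PBS libraries. Rab8b had a log2 fold change of −0.48 in females and 1.75 in males (limma adjusted p of the difference = 0.783).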

How the data were processed

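The deposited table holds a normalised signal per gene and library. Dividing each column by 1 factor gave whole reads for 100% of the values above 0, within 0.01 read. The submitters' processing notes name the builds mm10 and GRCm38 and the tools DESeq2 1.24.0, HTSeq 0.9.0, STAR 2.5.4b and FastQC, with roles not stated. Libraries were QuantSeq FWD 3′ libraries, per the labels' protocols. How strand, multiple matches and duplicates were treated is not given in the sources used here. Reads may be copies of 1 molecule, so the limit of 3 reads covers counting error only.

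All 13877 genes with a mean of at least 10 were fitted with limma 3.58.1 (R 4.3.3) on log2(value + 1) with a variance trend, treatment as the sole term, 4 IL-33 and 4 PBS libraries, and Benjamini-Hochberg adjustment. Intervals are 95% limma intervals. edgeR 4.0.16 and DESeq2 1.42.0 ran on the recovered reads. Other alternatives were quantile normalization, TMM scaling, a fit with no variance trend, sex as a covariate, pseudocounts of 0.5 and 5, no filter, a mean of at least 50 and left-out libraries.

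Members and gene lists were chosen with earlier results of these data known. Named were members called by limma or edgeR or without overlap, the 2 most abundant of each role, up to 4 called genes of each regulator list or its 2 most abundant, and the 2 most abundant of each list of another cell type. Values of some genes that this rule names are not reported here. Others are named for their link to these or for values seen. Coordinates are from the GENCODE annotation of GRCm38.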

Additional observations from a re-analysis of the deposited data

Results flagged for a closer look

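A library was looked at again where its gap to the nearest of its 4-library group, divided by the range of the group on log2(value + 1), was above Dixon's 95% critical value. Of 116 groups of named genes 9 had such a library, and chance gives about 1 in 20. Among the members, Snap91 stood out in PBS replicate 6 (ratio 1), the sole library with reads of it, and Stx17 was far below the others in the same library (ratio 0.92), at 1.7 against 135 to 189.7. Among the regulators, Tbc1d1 was lowest in PBS replicate 7 (ratio 0.877), at 319.6 against 580 to 631, and Vps41 in IL-33 replicate 3 (ratio 0.844), at 74 against 365 to 489. IL-33 replicate 3 was also far below the other IL-33 libraries for the neuronal Meg3 (ratio 0.852), the astrocyte gene Slc1a2 (ratio 0.912) and the monocyte gene Ccr2 (ratio 0.937). Pecam1 of endothelium was far lower in IL-33 replicate 4 (ratio 0.907), and Pf4 of border macrophages was read in PBS replicate 5 alone of its group (ratio 1).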

How the results depend on the processing

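The count of members called higher, 2 as reported, was 1 without a variance trend, 4 in DESeq2 and 1 without IL-33 replicates 3 and 4, and the count called lower, 1 as reported, was 2 under quantile normalization, 2 in DESeq2 and 0 to 1 with a library left out. Over all genes, 424 higher and 388 lower as reported, the higher calls were 175 without a variance trend and 784 in DESeq2. The lower calls were 204 with no filter, 238 without a variance trend, 863 in DESeq2 and 153 to 531 with a library left out. Members with a sex difference, 0 as reported, were 2 in DESeq2. Quantile normalization raised the median log2 fold change of all genes by 0.29, edgeR by 0.32, DESeq2 by 0.31 and omission of that IL-33 pair by 0.28. Signs turned for uncalled members: under quantile normalization Rab14 to −0.14, Rab5c to −0.087 and Vamp8 to −0.085, and without IL-33 replicates 3 and 4 Rab14 to −0.048, Rab3a to 0.41 and Stx4a to 0.53. With a library left out Rab2a ran from −0.26 to 0.076, Rab40c ran from −0.83 to 0.23, Rab5c ran from −0.14 to 0.30, Rab7 ran from −0.015 to 0.41 and Vamp8 ran from −0.12 to 0.23. Of 775 values for 41 named genes, 675 kept direction and side of the threshold, 79 were no longer past it, 4 came past it and 17 turned. The cause was not tested. No paired analysis was possible because the IL-33 and PBS libraries share no replicate number. Intervals were wider than 4 log2 units for 33 of 70 members, and their relation to depth was not tested.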
